A study of Mus musculus with 8 samples.

Results

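The astrocytes analysed here were found among cells sorted for a golli-τ-eGFP reporter (GTE) from the frontal isocortex of mice at postnatal day 7. A GTE cell was taken as an astrocyte when it had at least 1000 counts, a count of Slc1a3, a count of at least 2 of the 4 genes Aqp4, Gja1, Mfge8 and Slc7a10, and no count of Pdgfra. The rule found 1159 astrocytes among 11382 GTE cells, of which 7354 had at least 1000 counts, and the whole series held 22876 cells. The control libraries gave 112 and 285 of them and the Foxp2 knockout (cKO) libraries 582 and 180. Pairs of values are given here in the order replicate 1, replicate 2, and series of 4 values as control 1, control 2, cKO 1, cKO 2.

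Controls of this sort carried golli-τ-eGFP and Foxp2 flox/flox without Cre, and the conditional knockouts (cKO) carried golli-τ-eGFP, Foxp2 flox/flox and Emx1-Cre, so the floxed alleles and the reporter were shared by all 4 libraries. Emx1-Cre acts in the dorsal forebrain lineage, which gives rise to excitatory neurons and most astrocytes of the isocortex. The 2 control libraries and cKO 1 were labelled male and cKO 2 female. A second sort used for comparison took cells with Drd1a-tdTomato (D1Tom) from mice of the same age, with Foxp2 flox/flox alone in 2 controls and with Emx1-Cre in addition in 2 cKO, of which 3 libraries were labelled female and cKO 2 male. The labels do not say how many animals went into a library, so the spread between the 2 libraries of a group may be partly technical. Control and cKO were compared to ask what loss of cortical Foxp2 does to cell type composition and expression.

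Astrocytes clear glutamate and potassium from around synapses, are joined to each other by gap junctions, line vessels with water channels and supply cholesterol and secreted proteins to neurons. In the first postnatal week the astrocytes of the mouse cortex still divide and keep much of the expression of the radial glia from which they come. The golli products of the Mbp gene are made in some neurons and in the oligodendrocyte lineage, and the series describes the sort as one for neurons.

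Astrocytes had median counts of 3321 and 2755 in the controls and of 2880 and 4677 in the cKO libraries, against medians from 1571 to 3105 in the other GTE cells with at least 1000 counts and from 7049 to 11692 in D1Tom cells chosen by the same rule. The astrocytes of a GTE library held between 462207 and 1846517 counts in all. The median mitochondrial share per astrocyte lay between 3.62% and 5.96%, and cKO 1 had the lowest. Among all cells, cKO 1 also stood apart: 1430 of its 1440 cells had at least 1000 counts, whereas in control 1 2196 of 3948 did. No astrocyte barcode occurred in more than 1 GTE library, and 18 also occurred in the D1Tom sort. No doublet caller was run. The counts do not behave as plain numbers of molecules, as within the astrocytes values of 2 were between 0.927 and 1.42 times as frequent as values of 1, depending on the library. In D1Tom cells chosen by the same rule these ratios were 1.78, 0.717, 1.57 and 0.300. The effect of this on comparisons between libraries and sorts, with or without thinning of counts, was not tested.

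The rule fixes the 5 marker genes, so their values describe the cells and test nothing. Every astrocyte had Slc1a3, the glutamate transporter GLAST, while Aqp4, the main water channel of astrocyte endfeet, was counted in 89.6% of them and Gja1, the gap junction protein connexin 43, in 87.7%. Mfge8, a secreted bridge to phagocytic receptors, was counted in 54.0% and Slc7a10, a transporter of small neutral amino acids, in 45.9%. In all, 481 cells had 2 of the 4 genes, 461 had 3 and 217 had 4. Just outside the rule lay 571 cells with 1 of the 4 genes, 156 that met everything but had Pdgfra, 149 without Slc1a3 and 12 with at least 800 but under 1000 counts, and 23 astrocytes lay just inside the minimum with under 1200 counts. The cells with 1 of the 4 genes had Slc1a3 at 1880 CPM (a gene's count scaled to 1000000 counts in all over the same cells) and the neuronal Stmn2 at 1040 CPM, whereas the astrocytes with 2 of the 4 had 3670 and 735 CPM. The cells excluded for Pdgfra had a median of 6348 counts, Pdgfra at 1042 CPM and Olig1 at 1374 CPM, and still had Slc1a2 at 3215 CPM.

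Genes that the rule did not use were then set against the label, and the counts given from here on for lists of astrocyte function leave out the rule's genes. Of 11 genes of glutamate and GABA handling, 8 were higher in the astrocytes than in the other GTE cells of at least 1000 counts in each of the 4 libraries. Slc1a2, the main glutamate transporter of the forebrain, was at 2419 and 4989 CPM (control) and 4202 and 3262 CPM (cKO) against 836, 2254, 1262 and 1051 CPM in the other cells of the same libraries in the same order. Slc6a11, the glial GABA transporter GAT-3, was at 554 and 852 CPM (control) and 785 and 859 CPM (cKO) against 128, 256, 148 and 184 CPM. Both genes were higher in the astrocytes of each library. Of all 15769 genes, 2570 were higher in the astrocytes in all 4 libraries, and since the cells were chosen on counts of the same table these contrasts were not tested. The list counts here and below are to be read against that share. Only 13985 of the 15769 genes had a count in any astrocyte and could be higher, so the share is a low background for lists of expressed genes.

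**Figure D1:**
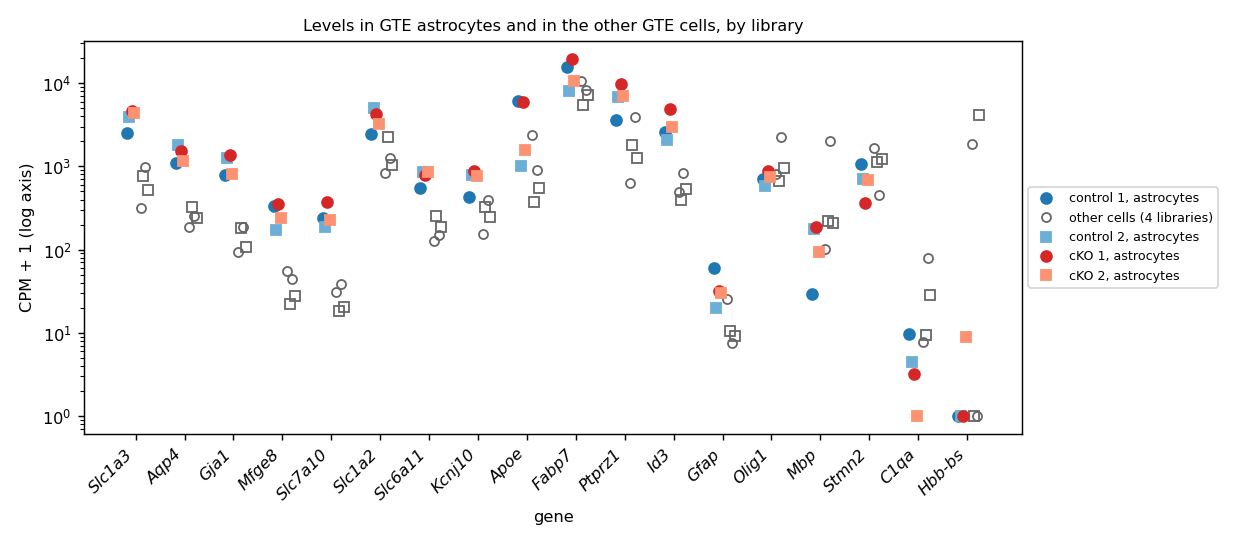
Level of 18 genes (horizontal axis) in CPM plus 1 on a log axis, in the astrocytes (filled, 1 point per GTE library) and in the other cells with at least 1000 counts of the same libraries (open, circles for replicate 1 and squares for replicate 2). Slc1a3 to Gfap lie above the open points of their library, while Olig1 lies at 578 to 876 CPM in the astrocytes.

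Other gene groups of astrocyte function lay the same way, as 12 of 15 genes for ion channels, water and gap junctions, 25 of 27 genes for cholesterol synthesis and lipid carriers and 18 of 24 secreted and matrix genes were higher than in the other cells in all 4 libraries. The potassium channel Kcnj10 (Kir4.1) was at 424 and 786 CPM (control) and 869 and 764 CPM (cKO). Ptprz1, a receptor phosphatase of glial progenitors and astrocytes, was at 3559 and 6815 CPM (control) and 9879.7 and 7107 CPM (cKO), lowest in control 1. Apoe, the lipid carrier of the brain, was at 6147 and 1017 CPM (control) and 5878 and 1584 CPM (cKO), so that control 1 and cKO 1 were both high and control 2 and cKO 2 both low, across genotypes. Cst3, a secreted protease inhibitor, was split between the same libraries, at 15606 and 4341 CPM (control) and 15791 and 6159.7 CPM (cKO). Fabp7, a fatty acid carrier of radial glia and young astrocytes, was at 15616 and 8104 CPM (control) and 19394 and 10490.1 CPM (cKO).

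Transcription factors of the astrocyte lineage were counted in all 4 libraries, with 27 of 34 higher than in the other cells throughout. Sox9, which sets the glial fate, was at 266 and 546 CPM (control) and 678 and 430.0 CPM (cKO). Id3, a target of bone morphogenetic protein signals that blocks neurogenic factors, was at 2555 and 2063 CPM (control) and 4875 and 3002 CPM (cKO). Gfap, the filament protein of mature and reactive astrocytes, was low, at 58.4 and 18.7 CPM (control) and 30.9 and 29.3 CPM (cKO), and only 126 Gfap counts were found in the 1159 cells. After each cell was thinned to 1000 counts, Gfap was detected in 5.36%, 2.11%, 2.58% and 2.22% of the astrocytes, and in 2.21%, 0.713%, 0.825% and 0.407% of the other cells. Without thinning the mean share of Gfap-positive astrocytes was 6.22% ± 3.83 (SD, n = 2) in controls and 6.62% ± 0.855 (SD, n = 2) in cKO.

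Markers of other cells differed in how far they reached into the astrocytes. Of 5 oligodendrocyte precursor markers, Pdgfra was at 0 by the rule and Cspg4, Olig1 and Gpr17 were lower in CPM than in the other cells in all 4 libraries. Olig2, the remaining marker, was detected after thinning to 1000 counts in 14.3%, 14.4%, 22.9% and 15.6% of the astrocytes. In the other cells these shares were 4.85%, 8.69%, 48.8% and 6.10%, so Olig2 was more frequent in the astrocytes except in cKO 1. Olig1, though lower in CPM, was also detected in a larger share of the thinned astrocytes except in cKO 1. Its shares were 40.2%, 37.5%, 51.4% and 51.1%, against 35.7%, 33.2%, 75.4% and 36.8% of the other cells. Olig1, a factor of oligodendrocyte precursors that some astrocytes also express, stayed at 699 and 578 CPM (control) and 876 and 742 CPM (cKO), and 892 of the 1159 astrocytes had a count of Olig1 or Olig2. Mbp, the myelin gene whose promoter region drives the reporter, was at 28.1 and 175 CPM (control) and 186 and 93.4 CPM (cKO) in the astrocytes and at 102, 219.8, 1991 and 211 CPM in the other cells. The 7 microglia markers summed to between 1.13 and 33.9 CPM per library and the 5 endothelial markers to between 0 and 26.9 CPM. Ly6c1, Vtn, Kcnj8, Dcn, Col1a1 and Mag had no count in any astrocyte, but the mural and fibroblast lists were not absent. The 4 mural markers summed to 47.6, 57.2, 76.9 and 39.4 CPM in the astrocytes, against 22.1, 27.0, 19.0 and 8.51 CPM in the other cells. The 4 fibroblast markers summed to between 7.88 and 43.9 CPM, also above the other cells of each library. In each of these lists 1 gene was higher than in the other cells in all 4 libraries. The haemoglobin genes were all but absent from the astrocytes, with Hbb-bs at 0 and 0 CPM (control) and 0 and 7.88 CPM (cKO) against 1862, 0, 0 and 4131 CPM in the other cells. Neuronal RNA was not absent. Stmn2, a tubulin regulator of neurons, was at 1077 and 711 CPM (control) and 359 and 678 CPM (cKO), and 461 of the 1159 astrocytes had no count of any of 5 neuronal markers.

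The astrocytes also varied among themselves. With every astrocyte thinned to 1000 counts, the ratio of the variance to the mean over cells was computed within each library for 2148 genes, and its median over genes was 1.42. Fabp7 had a median ratio of 5.05 over the 4 libraries and Cst3 one of 4.66. Id3 reached 3.86, with values of 3.73, 3.99, 4.40 and 3.66 in the 4 libraries, and was 6th of the 2148 genes. Spry2, an inhibitor of fibroblast growth factor signals chosen here after its values were seen, was 15th with a median ratio of 2.42. Apoe had a ratio of 9.33 in control 1 and of 1.61 to 2.80 in the other 3 libraries. These ratios are descriptions, and the part that the frequent values of 2 have in them was not tested.

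The share of astrocytes differed between all 4 libraries and did not separate the genotypes. Of the cells with at least 1000 counts, astrocytes made up 5.10% in control 1 (exact 95% binomial interval 4.22 to 6.10), 15.6% in control 2 (14.0 to 17.3), 40.7% in cKO 1 (38.1 to 43.3) and 9.47% in cKO 2 (8.19 to 10.9). The intervals cover counting error only, and they overlap for no pair of libraries. The means were 10.3% ± 7.42 (SD, n = 2) in controls and 25.1% ± 22.1 (SD, n = 2) in cKO, and the groups overlapped. The difference of 14.7 points gave p = 0.667 in a two-sided exact permutation test, and 2 against 2 libraries cannot give less than 0.333. Without cKO 1 the difference was -0.881 points, so the direction rests on that library, which was also the one with the fewest shallow cells. With a minimum of 2000 counts per cell the shares were 11.1%, 30.0%, 41.8% and 19.8%, a difference of 10.2 points. With a minimum of 500 counts the difference was 16.9 points, so the shares depended on the minimum. The part of depth in the difference between genotypes was not tested.

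**Figure D2:**
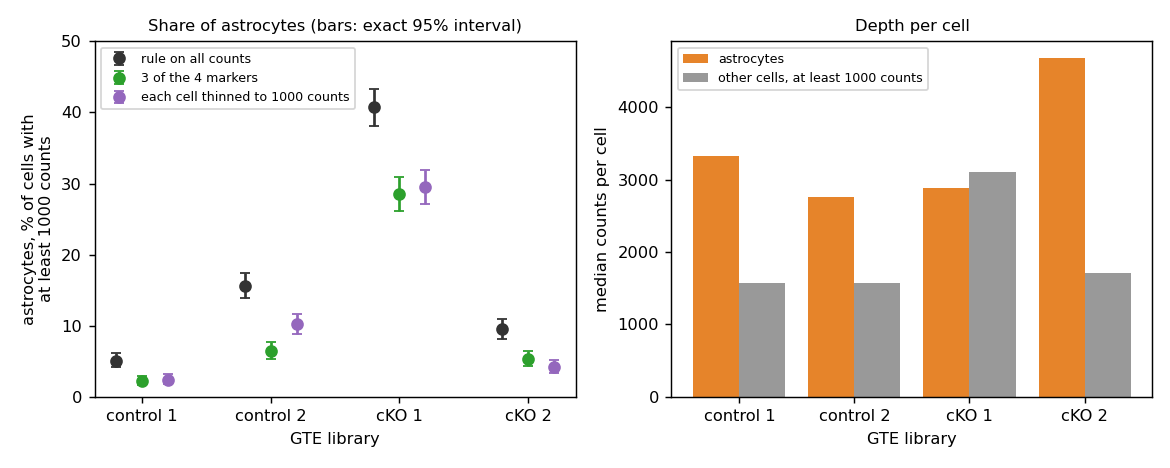
Left, astrocytes as a percentage of the GTE cells with at least 1000 counts in each library, by the rule as given, with 3 of the 4 markers required, and after thinning each cell to 1000 counts before the rule (bars, exact 95% binomial intervals). Right, median counts per cell in astrocytes and other cells; cKO 1 has the highest share under each setting, 40.7% by the rule, and the deepest other cells.

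No gene passed the test between cKO and control astrocytes. Astrocyte counts were summed per library for the quasi-likelihood test of edgeR, in which 0 of 8768 genes (0%) had a Benjamini-Hochberg adjusted p under 0.05. At an unadjusted p under 0.05 there were 326 genes (3.72%), and DESeq2 called 0 genes with 165 at an unadjusted p under 0.05. Without control 2 the test called 37 genes, without control 1 it called 11 and without cKO 1 it called 4, of which 3 were the Y-linked Ddx3y, Eif2s3y and Uty. Leaving out cKO 1 leaves the female library as the lone cKO.

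Foxp2, the targeted gene, encodes a forkhead transcription factor. It was at 10.8 and 36.2 CPM (control) and 14.1 and 5.63 CPM (cKO), 67 counts in all. The groups overlapped, with control 2 highest, and the log2 fold change of -1.39 ± 0.72 (SE) did not pass (adjusted p = 0.9997). It ran from -2.12 without cKO 1 to -0.35 without control 2, so its size rests on single libraries. Whether the counted end of the transcript lies outside the floxed part is not given in the sources used here, so this level does not check the deletion. Emx1, the homeobox gene whose locus drives the Cre, was at 30.3 and 25.7 CPM (control) and 10.8 and 11.3 CPM (cKO). Both cKO libraries were below both controls on 66 counts in all, and the log2 fold change of -1.50 ± 0.68 did not pass (adjusted p = 0.9997).

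The 5 genes of smallest p did not pass either. Fos, an immediate early gene that tissue dissociation also induces, was at 240.2 and 53.7 CPM (control) and 41.7 and 21.4 CPM (cKO). Both controls lay above both cKO, and control 1 was the highest. The log2 fold change was -2.40 ± 0.54 (adjusted p = 0.265), and the size rested on the controls: it was -0.82 without control 1 (adjusted p = 0.884) and -3.16 without control 2 (adjusted p = 1.8e-07, a call). Among D1Tom astrocytes the library labelled control 1 was the high one as well, at 1334 CPM against 70.1 to 131 CPM in the other 3. Gpr17, a receptor of oligodendrocyte precursors about to differentiate, was at 2.16 and 8.17 CPM (control) and 77.4 and 20.3 CPM (cKO), with a log2 fold change of 2.92 ± 0.73 (adjusted p = 0.618). Without control 2 it passed, at 4.19 (adjusted p = 0.0291), and without cKO 1 it was 1.79. It was also high in the other cells of cKO 1, at 767 CPM against 42.4 to 201 CPM in the other libraries. Cers6, a ceramide synthase, was at 19.5 and 39.7 CPM (control) and 3.79 and 4.50 CPM (cKO), Tppp, a tubulin polymerising protein of oligodendrocytes, was at 30.3 and 86.4 CPM (control) and 9.75 and 18.0 CPM (cKO), and Slc12a5, the neuronal chloride exporter KCC2, was at 41.1 and 50.2 CPM (control) and 10.8 and 9.01 CPM (cKO). For each of these 3 genes both cKO libraries lay below both controls, with log2 fold changes of -3.01, -2.26 and -2.35 and an adjusted p of 0.618. Tppp passed without control 1, at -2.75 (adjusted p = 0.00308), and was -1.43 without control 2.

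**Figure D3:**
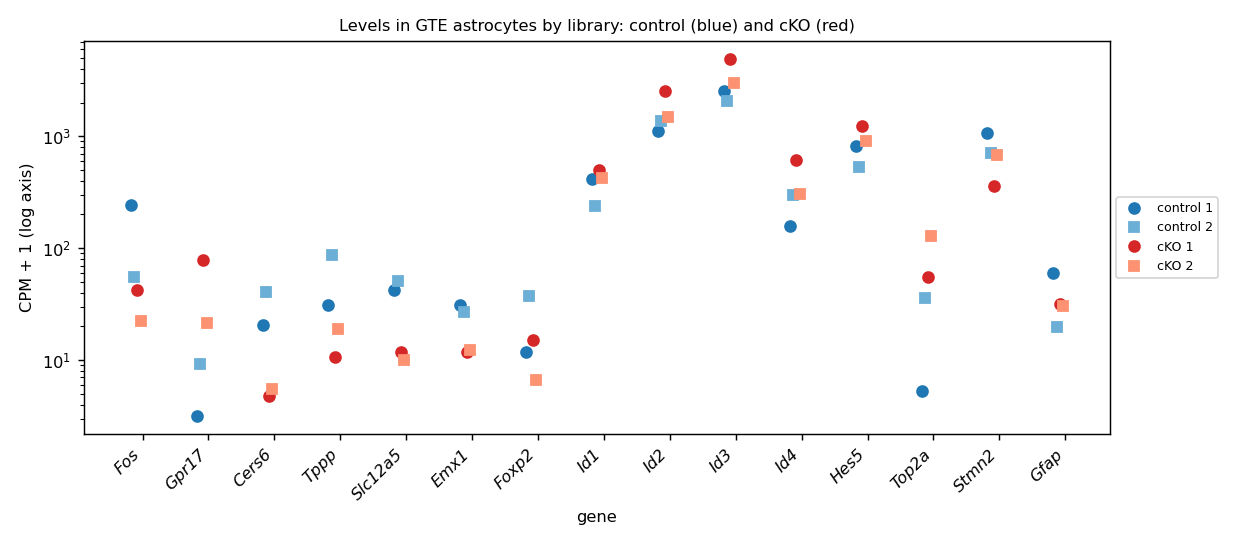
Level of 15 genes (horizontal axis) in CPM plus 1 on a log axis in the astrocytes of each GTE library, control in blue and cKO in red. Fos, Cers6, Tppp, Slc12a5 and Emx1 have both cKO points below both control points, Foxp2 and Gfap overlap, and none of the 15 passed the test.

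Over all genes tested, both cKO libraries lay above both controls for 22.1% and below both for 9.49%, and the counts of the gene lists are to be read against these shares. Of 32 transcription factors tested 13 lay above and 2 below, with a median log2 fold change of 0.26 against -0.016 over all genes, and none passed. The 13 included Hes1, Hes5 and Hey1, which act downstream of Notch, and Id1 to Id4. Id4 was at 158 and 298 CPM (control) and 607 and 306 CPM (cKO), where cKO 1 was high and the other cKO library was close to control 2. Hes5 was at 809 and 529 CPM (control) and 1239 and 908 CPM (cKO). Of 25 genes for cholesterol synthesis and lipid carriers 8 lay above and 0 below, and of 20 secreted and matrix genes 8 lay above and 0 below, with medians of 0.15 and 0.25 and none past the test. Of 24 signalling receptors 9 lay above, Notch1, Fgfr3 and the hedgehog receptor Ptch1 among them, and 1 below, with none past the test. For glutamate and GABA handling it was 1 of 10 above and 1 below, for ion channels, water and gap junctions 1 of 13 above, for metabolism and redox 1 of 20 above, and for phagocytosis 1 of 8 above, none of them past the test.

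The lists of other cell types are given beside these values. All 5 pan-neuron markers had a negative log2 fold change (median -1.02), and Tubb3, Rbfox3 and Stmn2 lay lower in both cKO libraries, though none passed. Their summed level in the astrocytes was 1499, 1338, 548 and 1036 CPM, and in the other cells 2255, 2129, 817 and 1734 CPM, in the same order of libraries. Their part in the lower values of Slc12a5 and the other neuronal genes was not tested. With only the astrocytes that had no count of the 5 neuronal markers, 3700 genes could be tested, Slc12a5 not among them, and 0 passed. As 0 genes passed in all astrocytes too, this fit cannot show what part neuronal RNA had. The oligodendrocyte precursor markers Olig1, Olig2 and Gpr17 all lay higher in both cKO libraries, with none past the test. In cells thinned to 1000 counts, Olig1 was detected in 40.2% and 37.5% of control astrocytes and in 51.4% and 51.1% of cKO astrocytes, against 35.7%, 33.2%, 75.4% and 36.8% of the other cells in the same order. The difference of 12.4 points gave p = 0.333 in the two-sided exact permutation test, the smallest value it allows. Of 8 cell cycle genes tested 7 had a positive log2 fold change and 5 lay higher in both cKO libraries, none past the test. Top2a, a topoisomerase of dividing cells, was at 4.33 and 35.0 CPM (control) and 54.7 and 127 CPM (cKO). cKO 2 was highest and control 1 lowest, and the log2 fold change of 1.97 ± 0.58 had an adjusted p of 0.874 that fell to 8.9e-04 without control 2. Without thinning, Top2a was counted in 0.893% and 3.16% of control astrocytes and in 2.58% and 7.78% of cKO astrocytes, and Mki67, a marker of cycling cells, in 1.79% and 1.05% of control and 2.58% and 8.89% of cKO astrocytes. In the other cells of cKO 2 the shares were 2.21% and 1.69%, and in those of cKO 1 they were 9.43% and 8.25%. After thinning to 1000 counts, Top2a was detected in 0% and 1.05% of control and in 1.55% and 5.56% of cKO astrocytes. For Mki67 the thinned shares were 0% and 0.702% (control) and 1.03% and 4.44% (cKO). Both differences gave p = 0.333 in the two-sided exact permutation test. The thinned shares of Top2a and Mki67 were 1.45% and 0.755% in the other cells of cKO 2, and 5.19% and 3.66% in those of cKO 1.

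Of 4 reactive astrocyte genes that could be tested 0 had a positive log2 fold change, and none passed. Of 6 dissociation genes tested 2 had a positive log2 fold change, and the summed level of that list was 738 CPM in control 1 against 402, 452 and 340 CPM in control 2, cKO 1 and cKO 2.

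The second comparison set the GTE astrocytes against the 3945 D1Tom cells chosen by the same rule, called D1Tom astrocytes here. These made up 31.6%, 34.9%, 29.7% and 41.1% of the D1Tom cells with at least 1000 counts. With each cell thinned to 1000 counts before the rule the shares were 15.8%, 10.8%, 13.4% and 15.3%, and in GTE 2.41%, 10.2%, 29.5% and 4.21%. Of the 1010, 837, 833 and 1265 D1Tom astrocytes, 123, 6, 62 and 17 had no count of the 5 neuronal markers. The 2 sorts were made with different reporters, mice and libraries, and they differed in depth and in the sexes of their mice, so the sort cannot be told apart from these. Which build and counting tool made each table is not given in the sources used here, and a difference in how the tables were made cannot be told apart from the sort either. The fit held genotype as a covariate and leaves the 5 marker genes as description. Of 12503 genes tested with edgeR, 710 (5.68%) were higher and 1379 (11%) were lower in GTE astrocytes at an adjusted p under 0.05. With every cell thinned to 1000 counts before the rule, 78 of 6138 genes (1.27%) were higher and 245 (3.99%) lower. Of the 2089 genes called at full depth 1160 could be tested after thinning, 1152 of these had the same direction and 292 were called again, 74 higher and 218 lower. With the control libraries alone 159 genes were called, 10 higher and 149 lower.

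The largest change upward, in Cxcl11, rested on 18 counts in GTE astrocytes and lost its call with control libraries alone and without D1Tom control 2, D1Tom cKO 1 or GTE control 2, and the large changes at well counted genes included Vegfa, Kcnj10, Gjb6, Slc39a12 and Abhd3. Vegfa, the vascular growth factor, was at 273, 517, 835 and 398 CPM in GTE astrocytes and at 80.8, 59.0, 85.1 and 77.3 CPM in D1Tom astrocytes. The groups did not overlap, and the log2 fold change was 2.79 ± 0.29 (SE; adjusted p = 3.1e-05) at full depth and 2.22 after thinning (adjusted p = 6.8e-05). Kcnj10 was at 424, 786, 869 and 764 CPM against 172, 116, 168 and 127 CPM in D1Tom. Its log2 fold change was 2.36 ± 0.26 (adjusted p = 7.7e-05) and 1.92 after thinning (adjusted p = 6.7e-04). Slc39a12, a zinc transporter, was at 84.4, 121, 196 and 83.3 CPM against 25.8, 14.3, 25.8 and 23.3 CPM, a log2 fold change of 2.53 ± 0.29, and Abhd3, a phospholipase, was at 160.1, 154, 400.2 and 120.4 CPM against 56.6, 21.6, 44.3 and 31.7 CPM, a log2 fold change of 2.49 ± 0.37. All 4 genes passed at an adjusted p under 0.05 in each of the 18 alternatives run. Gjb6, the gap junction protein connexin 30, was at 73.6, 64.2, 118 and 51.8 CPM against 28.4, 5.07, 11.0 and 10.7 CPM, a log2 fold change of 2.61 ± 0.44 (adjusted p = 0.00196) that missed the threshold with control libraries alone.

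The other cells of the 2 sorts differed in the same direction for Kcnj10 and Vegfa, so these differences were not limited to astrocytes. Kcnj10 averaged 278 CPM in the other GTE cells and 60.7 CPM in the other D1Tom cells, and Vegfa 88.6 and 35.9 CPM. The test of whether a difference was larger in astrocytes than in other cells was not made.

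Gfap was lower in GTE astrocytes, at 58.4, 18.7, 30.9 and 29.3 CPM against 296, 398, 359.8 and 316 CPM in D1Tom. Every D1Tom library lay above every GTE library, and the log2 fold change was -3.28 ± 0.33 (adjusted p = 2.9e-05) at full depth and -3.47 after thinning (adjusted p = 5.9e-05). It passed under each of the 18 alternatives, with log2 fold changes from -5.24 to -3.01. In the other cells Gfap averaged 12.2 CPM in GTE and 64.1 CPM in D1Tom. Mt3, a zinc-binding metallothionein, was at 1093, 733, 726 and 1096 CPM against 2469.9, 1442, 2539.5 and 2341 CPM (log2 fold change -1.15 ± 0.33, adjusted p = 0.0317). That call was lost on leaving out each of 6 of the 8 libraries in turn. Gpx4, an enzyme that reduces lipid peroxides, was at 257, 134, 162 and 188 CPM against 489, 529, 503 and 614 CPM (log2 fold change -1.43 ± 0.29, adjusted p = 0.00566), and Nfix, a nuclear factor of glial maturation, was at 77.9, 112, 98.0 and 197 CPM against 252, 353, 301 and 419 CPM (log2 fold change -1.39 ± 0.29, adjusted p = 0.00688). Gfap, Mt3, Gpx4 and Nfix were called lower after thinning too. With control libraries alone Mt3 (adjusted p = 0.484), Gpx4 (0.303) and Nfix (0.142) lost the call, and Nfix lost it also in cells without neuronal counts (0.18).

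**Figure D4:**
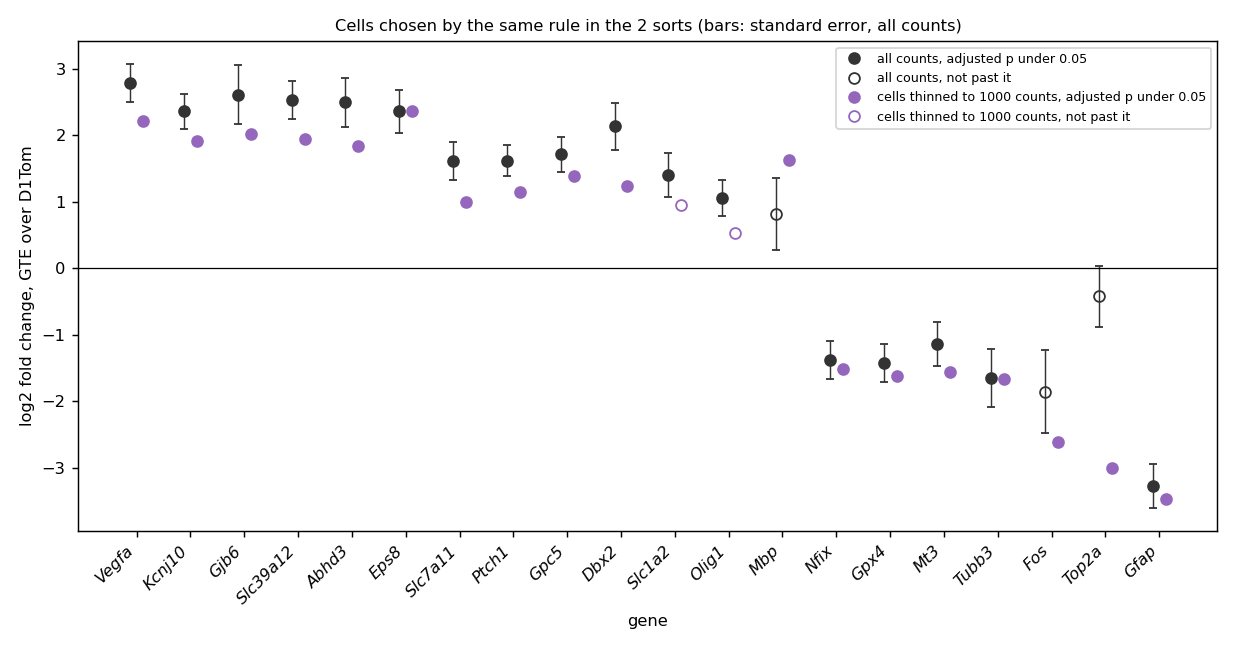
Log2 fold change of 20 genes (horizontal axis) between GTE and D1Tom astrocytes, at full depth (black, bars are standard errors) and with each cell thinned to 1000 counts (purple); filled points have an adjusted p under 0.05. Vegfa to Dbx2 lie above 0 and Gfap lies lowest under both, while Slc1a2 and Olig1 lose their call on thinning and Mbp, Fos and Top2a pass after thinning only.

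The gene lists are to be read against the shares over all genes, which were 5.68% higher and 11% lower at full depth and 1.27% and 3.99% after thinning. Of 15 genes for ion channels, water and gap junctions outside the rule 7 (46.7%) were higher in GTE and 0 lower, with a median log2 fold change of 0.72 against -0.11 over all genes, and after thinning Gjb6 and Kcnj10 were left of 13 tested. Of 27 signalling receptors 9 (33.3%) were higher and 0 lower, and after thinning 1 of 22, Ptch1, was left, at a log2 fold change of 1.62 ± 0.24 at full depth and 1.14 thinned. Of 24 secreted and matrix genes 7 (29.2%) were higher and 1, Sparc, lower, and after thinning Gpc5 and Vegfa were higher and Ncan lower of 19. Of 11 genes of glutamate and GABA handling 5 (45.5%) were higher and 2 (18.2%) lower, and of 27 genes for cholesterol and lipid carriers 7 (25.9%) were higher and 2 (7.41%) lower, but 0 of 10 and 0 of 26 were called after thinning. Of 9 phagocytosis genes 3 (33.3%) were higher and 1 lower, and 0 of 7 after thinning.

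Of 21 genes for metabolism and redox 1 (4.76%) was higher and 3 (14.3%) lower, and after thinning 1 and 3 of 19. The higher gene, Slc7a11, which takes up cystine for glutathione synthesis, was at 376, 490.4, 826 and 511 CPM against 240.1, 112, 253 and 151 CPM. Of 34 transcription factors 4 (11.8%) were higher and 3 (8.82%) lower, and Dbx2, higher, and Nfix, lower, remained called of 29 after thinning. With control libraries alone Ptch1, Slc7a11, Gpc5 and Dbx2 also lost the call in edgeR, with an adjusted p of 0.128 for Ptch1, 0.173 for Slc7a11, 0.0966 for Gpc5 and 0.125 for Dbx2. Gpc5 lost it also in cells without neuronal counts (adjusted p = 0.0943).

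Markers of other cells differed with the sort too. All 5 endothelial markers, 3 of 4 mural markers and all 4 haemoglobin genes were lower in GTE astrocytes at full depth, against 11% of all genes. After thinning 0 endothelial and 0 haemoglobin genes could be tested, and the 1 mural gene tested was not called. At full depth 1 of 6 microglia markers, 2 of 5 excitatory and 2 of 5 inhibitory neuron markers were lower. Cldn5, the tight junction protein of endothelium, was at 0, 2.34, 0 and 3.38 CPM in GTE astrocytes and averaged 156 CPM in D1Tom astrocytes. Of 5 pan-neuron markers 2 were lower in GTE at full depth and 1, Tubb3, after thinning. The part of RNA from these cells in the differences between sorts was not tested.

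Whether the effect of genotype differed between the sorts was tested with an interaction term, and 0 of 12825 genes (0%) passed at an adjusted p under 0.05, with 671 at an unadjusted p under 0.05. DESeq2 called 1 gene, the Y-linked Ddx3y. The 5 genes of smallest p, none of which passed, were Wdr13, Syngr2, Cers6, Slc12a5 and Zbed5, each with an adjusted p of 0.864. Cers6 and Slc12a5 were also among the 5 of smallest p within GTE, which share the same GTE libraries. Emx1 lay lower in both cKO libraries in each sort, at 21.3, 19.0, 11.7 and 10.0 CPM in D1Tom, and its interaction log2 fold change of -0.65 ± 0.58 did not pass (adjusted p = 0.876). Foxp2 in D1Tom astrocytes was at 17.3, 38.6, 18.7 and 15.8 CPM, and its interaction of -0.75 ± 0.79 did not pass (adjusted p = 0.891).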

How the data were processed

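Cells of both sorts were profiled with a 10x Genomics 3' kit, per the labels' protocols, with 2 libraries per genotype and sort. The authors deposited raw counts per gene and cell, the mitochondrial fraction per cell and the library of each cell. Per the submitters' processing notes Cell Ranger 2.1.1, UMI-tools 0.5.4, STAR 2.5.2b and featureCounts were among the tools, and mm10 and GRCm38.p6 among the builds. No doublets were removed here.

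Counts were summed over the astrocytes of each library, scaled by TMM, filtered with filterByExpr and fitted with edgeR 4.0.16 (quasi-likelihood, Benjamini-Hochberg threshold 0.05); SE is the log2 fold change over the square root of F. DESeq2 1.42.0 was an alternative. CPM divides by all counts of the summed cells. Shares of cells were compared with exact permutation tests. The fits were tested on simulated data with the same dispersion for every gene. For cKO against control, 1 of 61 genes changed by a log2 of 1 was called in the right direction, 18 of 62 at 2 and 49 of 61 at 3. For GTE against D1Tom it was 13 of 64, 58 of 65 and 63 of 66, and for the interaction 1 of 64, 14 of 67 and 33 of 63. Changes by a log2 of 1 were thus mostly missed. Recovery may be lower than these values for genes that spread more between libraries than the shared dispersion. The members, gene lists and tests were chosen with earlier results of these data known. Named genes are the rule's markers, Pdgfra, Foxp2, Emx1, Mbp and Gfap, up to 5 genes of highest mean CPM per list, the genes past the threshold (the 10 largest non-overlapping changes per direction, or the 5 smallest p where fewer than 5 passed) and the 10 genes of highest mean CPM; Spry2, Slc6a11, Sox9, Id4, Hes1, Hey1, Notch1, Fgfr3, Sparc, Ncan, Mag, Ddx3y, Eif2s3y, Uty, mt-Atp8 and mt-Co2 were named after their values were seen. The batches of GTE libraries are not clear from the labels, whose text on batches repeats that of D1Tom, and the GTE replicate numbers were not taken to pair the libraries: the deviations of control and cKO astrocytes correlated at 0.0459 over 8568 genes (0.496 in D1Tom).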

Additional observations from a re-analysis of the deposited data

How the results depend on the processing

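With the replicate block, cKO against control called 0 genes, GTE against D1Tom 2793 and the interaction 1. Leaving out 1 library at a time gave 0 to 37 genes for cKO against control, 784 to 2470 for GTE against D1Tom and 0 to 1 for the interaction. For cKO against control, a minimum of 2000 counts per cell gave 1 gene, Fos, and no filter on low counts gave 3, Fos, mt-Atp8 and mt-Co2; the cause was not tested. GTE against D1Tom gave 159 genes with control libraries only (fewer samples), 318 in cells without neuronal counts and 323 after thinning to 1000 counts (both with fewer genes tested). The cells without neuronal counts were few, with 28, 71, 311 and 51 in the GTE libraries and 123, 6, 62 and 17 in the D1Tom libraries. DESeq2 called 1 gene in the interaction. The difference in astrocyte share ran from -0.881 to 30.3 points over the libraries left out, and that in Gfap detection from -2.96 to 0.295 points, with 0.399 points unthinned. The interaction of Foxp2 ran from -1.56 without GTE cKO 1 to 0.42 without GTE control 2. Among the genes named in the comparison of sorts, 35 of their values under an alternative kept the direction and lost the call, and 10 gained one. Astrocytes without Olig1 or Olig2 counts, a setting chosen after seeing the data, made up 1.32%, 5.31%, 7.48% and 1.79% of the cells, and 0 of 3805 genes differed between genotypes. With 2 libraries per group, precision rests on their number and on 112 to 582 cells each.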

Other observations

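Some genes were nearly missing from the whole GTE table and not from the astrocytes alone. The mitochondrial gene mt-Nd4l, which every cell uses, had 29 counts in all GTE cells and 83895 in all D1Tom cells. Cd74, the invariant chain of antigen presentation, had 4 counts in all GTE cells and 2513 in all D1Tom cells. Of the 1379 genes called lower in GTE astrocytes, 104 had 0 counts there. Whether both tables were counted with the same tool and gene models is not given in the sources used here, so no fold between the sorts is given for these genes.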
